A study of Tupaia belangeri chinensis with 36 samples.

Results

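In the fetal cortex of the Chinese tree shrew, 6 genes passed thresholds for a peak in the intermediate zone (IZ). They passed both early and late in cortical development. The genes were chosen by their measured levels at embryonic day 28 (E28) and day 42 (E42). Levels were expressed as CPM, the counts of a gene after scaling every library to the same standard total, and were averaged for each layer and stage. A gene was kept when its IZ mean was at least 3 CPM and at least 1.5 times the mean of every other layer, at E28 and again at E42. Of the 21043 annotated features whose names begin with TSDBGID, 98 met these thresholds at E28 and 188 at E42, and 6 met them at both stages, which is 6.12% of the E28 list and 3.19% of the E42 list. Of the other 55828 features, named as LINC or antisense (AS) transcripts, 0 met the thresholds at both stages. The 6 genes carry the identifiers TSDBGID.23730, TSDBGID.4958, TSDBGID.20062, TSDBGID.6354, TSDBGID.10247 and TSDBGID.16483. The TSDBGID names were not paired with gene symbols in the tables used here (0 of 21043 were found), so the function of each gene is not given, and the dissected layers were not checked against marker genes. Nor do the names state whether a TSDBGID feature encodes a protein.

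The samples were layers cut by laser capture microdissection from Nissl-stained frozen sections of fetal cortex, and the labels name no treatment. At E28 the ventricular zone (VZ), inner and outer subventricular zones (ISVZ and OSVZ), IZ, cortical plate (CP) and marginal zone (MZ) had 2 libraries each. E42 had the same layers, with the plate divided into an inner (CPi) and an outer (CPo) part, and each layer again had 2 libraries. At E37 there were 3 IZ libraries, 2 each of the MZ, CPi and CPo, and 1 of the undivided CP, and the VZ, ISVZ and OSVZ of that stage were not analysed here. The 2 libraries labelled replicate 2 of the VZ, at E28 and at E42, held identical counts, so the E42 copy was left out and 35 of the 36 libraries were used. Which of the stages this library came from is not known, and its values are given under its E28 label. Counts assigned to features ranged from 17932690 to 102042743 per library, and from 20202632 to 22727813 in the E37 IZ. The labels do not say that replicates came from separate animals, and p-values then measure only the spread between these libraries, which may be technical.

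The IZ lies between the proliferative zones and the cortical plate. Newborn projection neurons cross it along radial glial fibres, growing axons run through it, and much of it later becomes white matter. Interneurons, blood vessels and, at later stages, oligodendrocyte precursors also pass through it. An RNA that is higher in the IZ can therefore come from any of several cell types. In dissected tissue, more cells of a type and more RNA per cell cannot be told apart.

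Values at E28 and E42 chose the genes and are given as a description without a test. The thresholds used no E37 value, although they were chosen with earlier results of these data known. At E37 the genes fell into 2 patterns. TSDBGID.23730, TSDBGID.20062, TSDBGID.4958 and TSDBGID.6354 again had their highest mean in the IZ. TSDBGID.10247 and TSDBGID.16483 had a higher mean in the MZ than in the IZ, which for TSDBGID.16483 rested on single libraries: its fitted log2 difference of IZ from MZ was -0.19, and 0.19 without IZ replicate 2 and 0.45 without MZ replicate 3.

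**Figure D1:**
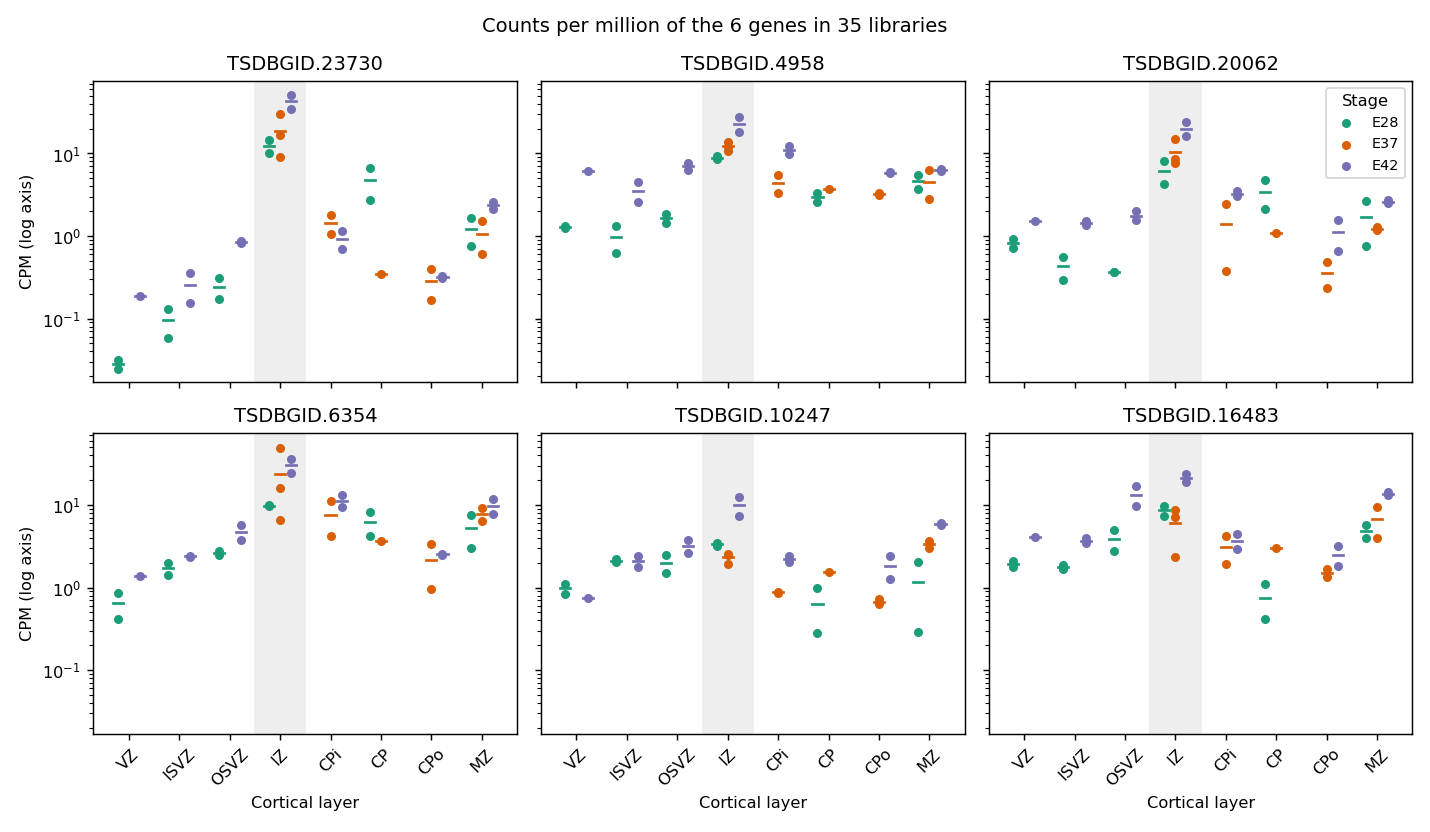
Level of each of the 6 genes in CPM (log axis) by cortical layer, with 1 point per library, a bar at the mean of each layer and stage, and colours for E28, E37 and E42. The IZ column, shaded, holds the highest means of every gene at E28 and E42, and at E37 the MZ mean of TSDBGID.10247 and TSDBGID.16483 lies above the IZ mean.

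TSDBGID.23730 showed the steepest difference between the IZ and the other layers. At E28 its level was 14.5 and 10.03 CPM in the IZ, 6.73 and 2.71 CPM in the CP, and 1.65 and 0.766 CPM in the MZ. The proliferative zones held little of it, with 0.0317 and 0.0249 CPM in the VZ (1 count in each library), 0.133 and 0.0589 CPM in the ISVZ, and 0.312 and 0.172 CPM in the OSVZ. Both IZ libraries thus stood above every other library of E28, with the CP next. At E37 the 3 IZ libraries had 16.6, 9.06 and 30.1 CPM, against 1.79 and 1.06 CPM in the CPi, 0.346 CPM in the CP, 0.4 and 0.166 CPM in the CPo, and 0.613 and 1.53 CPM in the MZ. The lowest IZ library lay well above the highest other library, so the groups did not overlap. At E42 the IZ had 51.5 and 34.5 CPM, the MZ 2.62 and 2.13 CPM, the CPi 1.16 and 0.698 CPM, the OSVZ 0.835 and 0.877 CPM, and the CPo, ISVZ and VZ libraries between 0.153 and 0.352 CPM. The IZ mean was 2.60 times the next layer at E28 (CP), 13.1 times at E37 (CPi) and 18.1 times at E42 (MZ).

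TSDBGID.20062 had the same order of layers at E37. At E28 it had 8.18 and 4.25 CPM in the IZ and 4.8 and 2.12 CPM in the CP, with 2.65 and 0.766 CPM in the MZ and less than 1 CPM in each VZ, ISVZ and OSVZ library. The lower IZ library was below the higher CP library, so the IZ and CP overlapped at E28, a stage that chose the gene. At E37 the IZ had 8.66, 7.74 and 14.9 CPM, the CPi 2.41 and 0.377 CPM, the CP 1.1 CPM, the CPo 0.48 and 0.233 CPM, and the MZ 1.28 and 1.18 CPM. At E42 the IZ had 24.04 and 16.1 CPM, and the next layer was the CPi with 3.49 and 3.04 CPM. No other library reached the IZ at E37 or E42, and the IZ mean was 1.80 times the CP at E28, 7.48 times the CPi at E37 and 6.15 times the CPi at E42. Across the 35 libraries, log2(CPM + 1) of TSDBGID.20062 and TSDBGID.23730 had a Pearson r of 0.941, the highest of the 15 pairs among the 6 genes. All 15 coefficients share the libraries and the IZ level that chose the genes, and the lowest was 0.526, between TSDBGID.23730 and TSDBGID.10247.

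TSDBGID.4958 had a flatter profile. In the IZ it had 9.36 and 8.47 CPM at E28, 10.7, 12.1 and 13.7 CPM at E37, and 18.2 and 27.4 CPM at E42. The next layer was the MZ at E28 (5.56 and 3.68 CPM) and at E37 (2.84 and 6.25 CPM), and the CPi at E42 (9.85 and 12.5 CPM). The IZ mean was 1.93, 2.67 and 2.04 times that layer, and at none of the 3 stages did an IZ library overlap another layer. This gene was also measured in the proliferative zones, where it went from between 0.629 and 1.86 CPM at E28 to between 2.61 and 7.72 CPM at E42.

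TSDBGID.6354 was less even among replicates. The IZ libraries had 9.93 and 9.71 CPM at E28 and 24.4 and 36.2 CPM at E42. At E37 they had 15.9, 6.51 and 49.0 CPM. At that stage the CPi had 4.17 and 11.01 CPM and the MZ 6.36 and 9.28 CPM, so the lowest IZ library, replicate 2, was below replicate 3 of both layers and the groups overlapped. The CP was next to the IZ at E28 (8.16 and 4.2 CPM), the MZ at E37 and the CPi at E42 (9.34 and 13.3 CPM). The IZ mean was 1.59, 3.04 and 2.68 times the next layer at E28, E37 and E42. In the VZ the gene had 0.412 and 0.87 CPM at E28 and 1.37 CPM at E42.

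At E28 and E42 the other 2 genes had their 2 next highest means among the MZ, OSVZ and ISVZ. The MZ was also next in TSDBGID.4958 at E28 and in TSDBGID.23730 at E42, but there a plate layer came directly after it. TSDBGID.16483 had 9.79 and 7.45 CPM in the IZ at E28, with 5.72 and 3.97 CPM in the MZ, 2.78 and 4.92 CPM in the OSVZ, and 0.41 and 1.1 CPM in the CP. At E42 it had 19.2 and 23.6 CPM in the IZ, 14.3 and 13.2 CPM in the MZ, 9.82 and 16.9 CPM in the OSVZ, and no more than 4.44 CPM in the CPi and CPo. The IZ did not overlap another layer at either stage. At E37 the IZ had 7.23, 2.33 and 8.71 CPM and the MZ 4.02 and 9.44 CPM, and these ranges overlapped. The CP was the lowest layer at E28 and the CPo at E37 and E42. TSDBGID.16483 was also the gene closest to the fold threshold, at 1.78 times the next layer at E28 and 1.56 times at E42. Among features with an IZ mean of at least 3 CPM at both stages, TSDBGID.6880 lay just outside that threshold, with 1.54 and 1.45 times.

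TSDBGID.10247 was the gene closest to the floor of 3 CPM. Its IZ libraries had 3.45 and 3.23 CPM at E28, and the ISVZ (2.19 and 2.03 CPM) and OSVZ (2.5 and 1.49 CPM) came next. The plate was again the lowest layer, with 0.984 and 0.282 CPM. At E42 the IZ had 7.44 and 12.4 CPM and the MZ 6.04 and 5.76 CPM. At E37 the order was different, with 3.62 and 3.03 CPM in the MZ and 2.57, 2.46 and 1.95 CPM in the IZ, and both MZ libraries stood above all 3 IZ libraries. The IZ mean was 1.58, 0.700 and 1.68 times the highest other layer at E28, E37 and E42. Among features that met the fold threshold at both stages, the nearest under the floor was TSDBGID.7528, with an IZ mean of 1.53 CPM at E28. Across the 35 libraries TSDBGID.10247 and TSDBGID.16483 had a Pearson r of 0.794 with each other, and each had a lower r with every other gene of the 6.

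At E37 the same thresholds, applied to the 5 layers measured there, were met by 4 of the 6 genes. Over all TSDBGID features, including those with few or no reads, 203 of 21043 met them, which is 0.965%. The number fell to 3 of 6 genes without IZ replicate 3, which held the highest value of TSDBGID.6354. Every IZ library stood above every other E37 library in 3 genes (TSDBGID.23730, TSDBGID.4958 and TSDBGID.20062), against 2.21% of all TSDBGID features, again without a floor. The median of the IZ mean over the highest other layer was 2.86 among the 6 genes. It was 1.47 among the 182 features that met the thresholds at E42 but not E28, and 0.744 among the 92 that met them at E28 but not E42. Of those features, 73 of 182 (40.1%) and 5 of 92 (5.43%) met the thresholds at E37, and the difference between these shares was not tested.

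**Figure D2:**
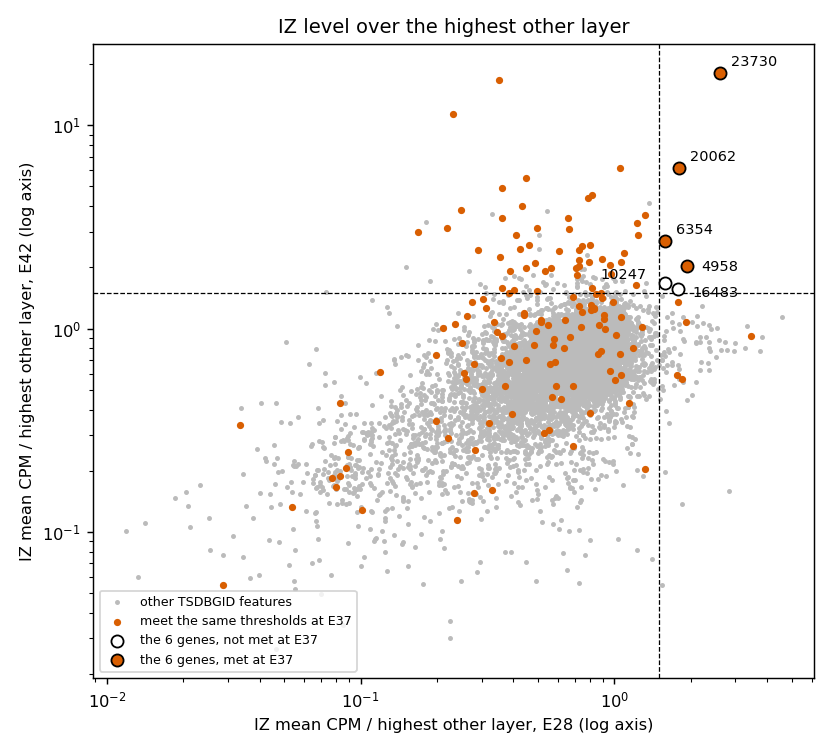
IZ mean CPM divided by the mean of the highest other layer at E28 (x, log axis) and at E42 (y, log axis), for the 9774 TSDBGID features with at least 3 CPM in the IZ at both stages. Dashed lines mark 1.5, larger symbols are the 6 genes, and orange marks features that met the thresholds at E37, which 4 of the 6 genes did.

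The layers of E37 were compared by edgeR's quasi-likelihood test with Benjamini-Hochberg adjustment over 19978 features, of which 14479 were TSDBGID features. All 6 genes passed the filter on low counts. The first comparison was of the IZ with the 5 libraries of the plate (CP, CPi and CPo), the layer that neurons enter after crossing the IZ. All 6 genes had a positive log2 fold change, with a median of 1.98, against 0.03 over the TSDBGID features tested. Higher expression in the IZ was called for 3 of the 6, against 3.47% of the TSDBGID features. TSDBGID.23730 was higher by 4.88 on the log2 scale (SE 0.444, adjusted p = 0.000198, edgeR). TSDBGID.20062 was higher by 3.59 (SE 0.502, adjusted p = 0.00229, edgeR) and TSDBGID.4958 by 1.55 (SE 0.281, adjusted p = 0.00678, edgeR). These were the genes whose E37 IZ libraries did not overlap another layer. The log2 fold change of TSDBGID.6354 was 2.42, with a 95% interval from 0.66 to 4.18 and an adjusted p of 0.185 by edgeR, and it was 1.38 without IZ replicate 3, the library with 49.0 CPM. TSDBGID.10247 and TSDBGID.16483 had 1.26 each, with adjusted p of 0.0864 and 0.153 by edgeR. The call of TSDBGID.4958 was lost without IZ replicate 3 (adjusted p = 0.0620, edgeR), and TSDBGID.16483 gained a call without IZ replicate 2 (adjusted p = 0.0318, edgeR).

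Libraries with the same replicate number deviated together at E37, so the ratios were also taken within a number. The IZ was above the mean of the plate libraries of its number in all 3 numbers for each of the 6 genes, as for 26.1% of all TSDBGID features. That share includes features with few or no reads. For TSDBGID.23730 the ratios of CPM were 47.9, 8.29 and 49.2 for numbers 1, 2 and 3, and for TSDBGID.20062 they were 7.86, 5.35 and 48.8. The ratios of TSDBGID.4958, at 2.88, 2.76 and 4.19, were the most even. TSDBGID.6354 had 4.36, 2.54 and 6.79, although its 3 IZ levels differed widely, and the lowest ratio of any gene was 1.28, for TSDBGID.16483 in number 2. With the replicate number as a block, 5 of the 6 genes were called higher in the IZ than in the plate, and so were 1116 (7.71%) of the TSDBGID features in place of 502. TSDBGID.6354 then had a log2 fold change of 2.27 (adjusted p = 0.0163, edgeR) and TSDBGID.10247 one of 1.21 (adjusted p = 0.0421, edgeR), and TSDBGID.16483 had an adjusted p of 0.0554.

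The outer and the inner plate were also compared with the IZ separately. Against the CPo, which lies farther from the IZ, 3 of the 6 genes were called higher in the IZ, against 2.7% of the TSDBGID features, and the median log2 fold change was 2.56 among the 6 genes and 0.01 among the features tested. TSDBGID.23730 was higher by 5.86 (SE 0.700, adjusted p = 0.00107, edgeR) and TSDBGID.20062 by 4.70 (SE 0.780, adjusted p = 0.00805, edgeR). TSDBGID.4958 was higher by 1.75 (SE 0.383, adjusted p = 0.0247, edgeR), a call that was lost when any of the 5 libraries was left out (adjusted p from 0.0551 to 0.237). TSDBGID.20062 lost its call without CPo replicate 3 (adjusted p = 0.134, edgeR), and TSDBGID.16483 gained one without IZ replicate 2 (adjusted p = 0.0310, edgeR). The block brought the count to 4 with TSDBGID.6354 (adjusted p = 0.0256, edgeR), and the share of all TSDBGID features to 5.95%.

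Against the CPi, which adjoins the IZ, the median log2 fold change was 1.43 among the 6 genes and 0.01 among the features tested, and only TSDBGID.23730 was called, by 3.57 (SE 0.592, adjusted p = 0.0414, edgeR). Few features passed in this comparison, with 11 TSDBGID features or 0.076% higher in the IZ, and from 1 without IZ replicate 1 to 48 without IZ replicate 2. With the replicate number as a block, 152 TSDBGID features (1.05%) passed. Without IZ replicate 1, CPi replicate 2, CPi replicate 3 or IZ replicate 3 the adjusted p of TSDBGID.23730 was 0.174, 0.137, 0.489 and 0.144, and with the block it was 0.0844, which left 0 genes called. TSDBGID.20062 was at 2.74 with an interval from 1.27 to 4.22 and an adjusted p of 0.194, and without CPi replicate 2 it gained a call (adjusted p = 0.0284, edgeR). The intervals of TSDBGID.4958 (0.54 to 2.14) and TSDBGID.10247 (0.26 to 2.34) also lay above 0, with adjusted p of 0.242 and 0.527, and those of TSDBGID.6354 and TSDBGID.16483 included 0.

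**Figure D3:**
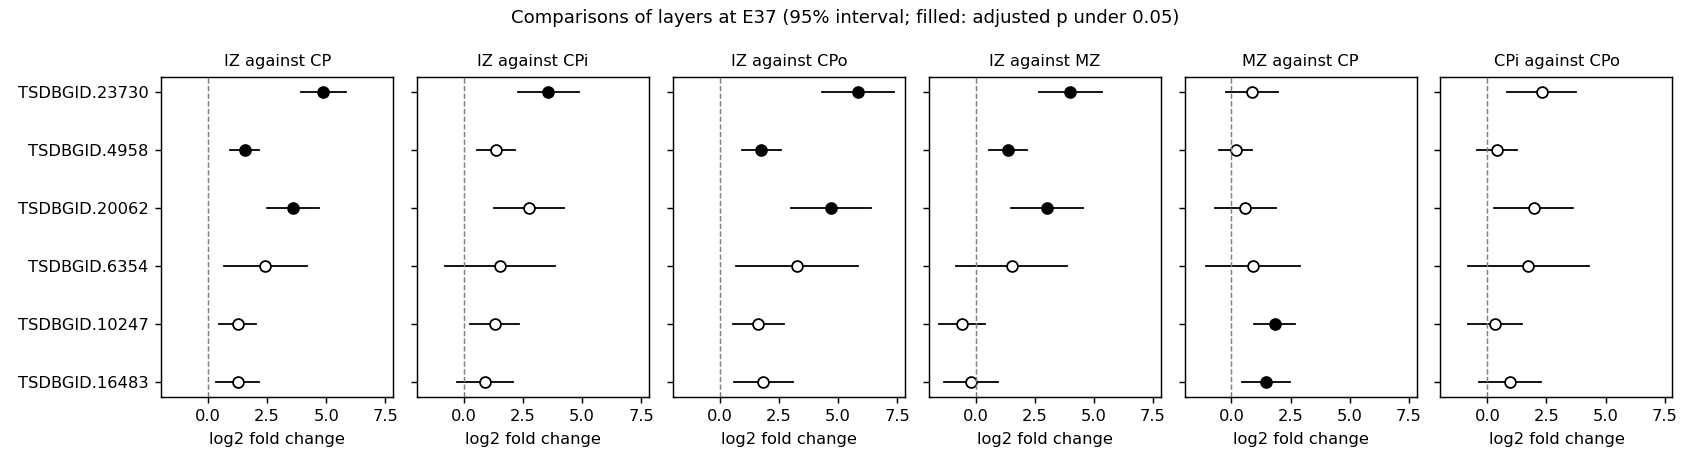
Log2 fold change of the 6 genes in 6 comparisons between layers at E37 (x), with 95% intervals and filled points where the adjusted p was under 0.05. TSDBGID.23730 passed in all 4 comparisons of the IZ, and TSDBGID.10247 and TSDBGID.16483 passed in the comparison of the MZ with the plate.

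The IZ was next compared with the MZ, on the other side of the plate. Here 3 of the 6 genes were called higher in the IZ, against 3.42% of the TSDBGID features, and the median log2 fold change was 1.45 against 0.00. TSDBGID.23730 was higher by 4.01 (SE 0.610, adjusted p = 0.00348, edgeR), TSDBGID.20062 by 3.01 (SE 0.693, adjusted p = 0.0269, edgeR) and TSDBGID.4958 by 1.37 (SE 0.375, adjusted p = 0.0461, edgeR). TSDBGID.6354 had a log2 fold change of 1.52 with an interval from -0.81 to 3.86 and an adjusted p of 0.415. TSDBGID.10247 was at -0.57 (interval from -1.54 to 0.40, adjusted p = 0.502) and TSDBGID.16483 at -0.19 (interval from -1.33 to 0.95, adjusted p = 0.872), and within replicate numbers 2 and 3 their IZ levels were 0.680 and 0.643 times, and 0.581 and 0.922 times, those of the MZ. The value of TSDBGID.16483 turned positive without IZ replicate 2 (0.19) or MZ replicate 3 (0.45), whereas that of TSDBGID.10247 stayed negative in each case (-0.77 to -0.36). Only the call of TSDBGID.23730 held whichever of the 5 libraries was left out. TSDBGID.4958 lost its call in each case (adjusted p from 0.0595 to 0.187) and with DESeq2 size factors in edgeR (0.0512), and TSDBGID.20062 did so without IZ replicate 1 (0.0786), MZ replicate 2 (0.106), IZ replicate 3 (0.0606) and MZ replicate 3 (0.212).

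The MZ and the plate were compared with no IZ library in the contrast. Of the TSDBGID features 14.6% were called higher in the MZ (7.35% without MZ replicate 3), and so were 2 of the 6 genes, TSDBGID.10247 by 1.83 (SE 0.400, adjusted p = 0.00604, edgeR) and TSDBGID.16483 by 1.45 (SE 0.464, adjusted p = 0.0436, edgeR). At E28 both had likewise been lowest in the CP. The call of TSDBGID.16483 was lost without CPo replicate 2 (adjusted p = 0.0860, edgeR), CPo replicate 3 (0.123) or MZ replicate 3 (0.484), and that of TSDBGID.10247 held without each of the 7 libraries. The other 4 genes had log2 fold changes from 0.17 to 0.90 and adjusted p from 0.264 to 0.763, and TSDBGID.4958, the lowest of them, was at -0.41 without MZ replicate 3. The median log2 fold change of the 6 genes was 0.88, against 0.04 over the features tested. In the same comparison 60 of the 92 features selected at E28 alone and 22 of the 182 selected at E42 alone were called higher in the MZ.

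The CPi and CPo were compared last. All 6 genes had a higher fitted level in the CPi than in the CPo, with a median log2 fold change of 1.35 against 0.00 over the features tested, and 0 of the 6 were called by edgeR at the adjusted threshold, where 0.0345% of the TSDBGID features were called. Without CPi replicate 2, 4 of the 6 were positive and the median was 0.83, with TSDBGID.4958 at -0.0452 and TSDBGID.20062 at -0.0023. By the unadjusted p, 2 genes were under 0.05. The share of all TSDBGID features under it was not counted, so no excess can be read from these 2. DESeq2 also called 0 of the 6 after adjustment, where 0.29% of the TSDBGID features were called. The genes under the unadjusted threshold were TSDBGID.23730, with a log2 fold change of 2.30 (interval from 0.82 to 3.77), and TSDBGID.20062, with 1.96 (interval from 0.29 to 3.63). For TSDBGID.20062 the CPi level rested on replicate 2, at 2.41 CPM, since replicate 3 had 0.377 CPM, within the range of the CPo (0.48 and 0.233 CPM). For TSDBGID.23730 both CPi libraries stood above both CPo libraries.

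All 6 genes were higher in the IZ at E42 than at E28. The ratio of the means was 3.50 for TSDBGID.23730, 3.23 for TSDBGID.20062, 3.09 for TSDBGID.6354, 2.97 for TSDBGID.10247, 2.55 for TSDBGID.4958 and 2.48 for TSDBGID.16483. Each was at least 2, as in 1193 (12.2%) of the 9774 TSDBGID features with 3 CPM in the IZ at both stages. These stages chose the genes, and the difference is given without a test. Means also rose in other layers for some of the genes, which was not tested. TSDBGID.16483 went from 3.85 to 13.4 CPM in the OSVZ and from 4.85 to 13.7 CPM in the MZ. TSDBGID.4958 went from 1.64 to 6.99 CPM in the OSVZ, and TSDBGID.10247 from 1.15 to 5.90 CPM in the MZ. TSDBGID.23730 instead went down in the plate. It had 4.72 CPM in the CP at E28, and 0.930 CPM in the CPi and 0.322 CPM in the CPo at E42. The E37 IZ mean lay between those of E28 and E42 for 4 genes. TSDBGID.23730 had 12.3 ± 3.17 CPM (SD, n = 2) at E28, 18.6 ± 10.6 CPM (SD, n = 3) at E37 and 43.0 ± 12.0 CPM (SD, n = 2) at E42. TSDBGID.4958 had 8.92 ± 0.625, 12.2 ± 1.48 and 22.8 ± 6.53 CPM, and its libraries of the 3 stages did not overlap. For TSDBGID.20062 the means were 6.22 ± 2.78, 10.4 ± 3.89 and 20.1 ± 5.63 CPM, and for TSDBGID.6354 they were 9.82 ± 0.151, 23.8 ± 22.3 and 30.3 ± 8.33 CPM, with E37 libraries both below those of E28 and above those of E42. TSDBGID.10247 and TSDBGID.16483 instead had their lowest mean at E37, with 2.33 ± 0.333 and 6.09 ± 3.34 CPM, and the E42 mean was 4.26 and 3.52 times that value. The 3 E37 libraries of TSDBGID.10247 lay below both E28 libraries, whereas those of TSDBGID.16483 overlapped them. Without IZ replicate 2 of E37, 3 genes in place of 4 had the E37 mean between the others.

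**Figure D4:**
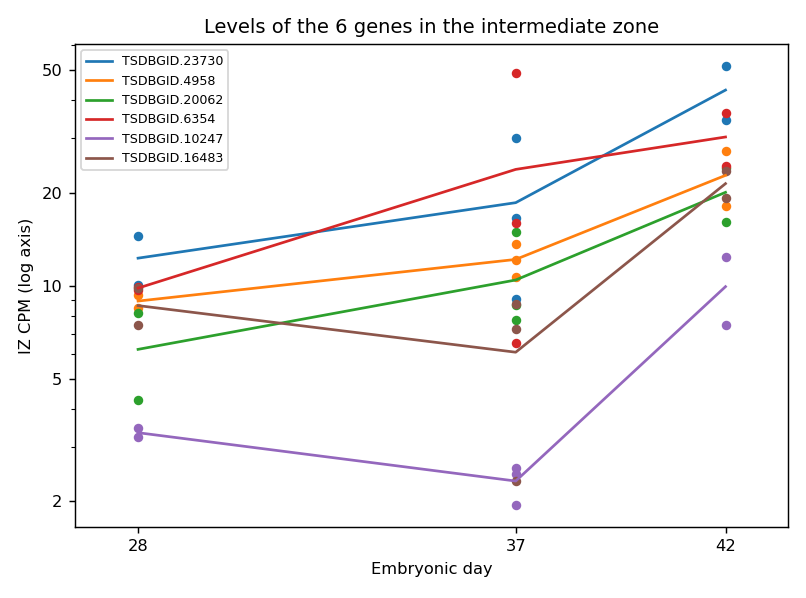
IZ level of the 6 genes in CPM (y, log axis) by embryonic day (x), with 1 point per library and lines through the stage means (n = 2 at E28, 3 at E37 and 2 at E42). The lines of 4 genes rise from E28 to E37 to E42, and those of TSDBGID.10247 and TSDBGID.16483 dip at E37.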

How the data were processed

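RNA of laser-dissected layers of the fetal Chinese tree shrew cortex was sequenced by the authors, who trimmed adapters, mapped reads with HISAT2 and counted them with HTSeq. The deposited values are raw integer counts per annotated feature and were not normalized, and whether counting used strand is not given in the sources used here, so features that overlap or share sequence with a copy are uncertain. Samples were grouped by stage and layer as labelled. The thresholds used CPM over all counts assigned to features, and the 6 genes, thresholds and comparisons were chosen with earlier results of these data known. CPM is not adjusted for transcript length, so levels were compared between layers and not between genes.

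The 10 E37 libraries were fitted in R 4.3.3 with edgeR 4.0.16 (TMM, filterByExpr with a minimum count of 10, robust quasi-likelihood fit, 5 groups). The contrast with the plate weighted its 5 libraries alike. Benjamini-Hochberg adjusted p under 0.05 was called. The fit was also run on simulated data, whose libraries were drawn independently, so it does not cover deviations shared by libraries of the same number. The labels share replicate numbers between layers without saying what they mark. After group means were removed, all 12 pairs of same-numbered E37 libraries had correlations above 0.1 (0.158 to 0.364, of which 9 are distinct, since the deviations in a layer with 2 libraries mirror each other), so the number was taken to pair them, from the data only. Alternatives were DESeq2 1.42.0, its size factors, other library sizes, no filter, all 35 libraries, a log2 fold change above 1, a replicate block, each library left out in turn and other thresholds for choosing the genes. Tables and plots were made in Python 3.11.15 with matplotlib 3.10.9.

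Identifiers were to be named by rule: the 2 genes with the highest E37 IZ mean among those called in every IZ comparison, those with the 2 largest and 2 smallest fold changes of IZ against CP and ratios of E42 to E28, and the features on either side of each threshold. TSDBGID.6354 fell outside it and was named, after its values were seen, to complete the 6.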

Additional observations from a re-analysis of the deposited data

How the results depend on the processing

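The choice of the 6 genes depended on the thresholds and on single libraries. A fold of 2 kept 1 gene and a floor of 10 CPM kept 1, in both cases TSDBGID.23730. TMM-scaled CPM kept 4, without TSDBGID.10247 and TSDBGID.16483. Replicate 2 of both stages alone gave 15 genes, of which 4 were among the 6, and leaving out each IZ library of E28 and E42 gave 6 to 11, the highest without replicate 2 of E28. At E37, DESeq2 called 5 genes higher in the IZ than in the plate, 3 than in the CPi and 6 than in the CPo. The shares of the 14479 TSDBGID features called by DESeq2 were 5.48%, 1.38% and 5.05%. All 35 libraries in 1 model gave 4 against the plate, 2 against the CPi and 5 against the CPo, with 650 (4.09%), 96 (0.603%) and 522 (3.28%) of 15911 TSDBGID features. Without the filter on low counts, 4 passed against the plate, 2 against the CPi, 4 against the CPo and 1 (TSDBGID.23730) in CPi against CPo. Of the 17683 TSDBGID features tested without the filter, 4.72%, 1.16%, 4.08% and 0.464% passed in these comparisons. The replicate block gave 5 genes for the plate and 0 for the CPi, moved the CPo count from 3 to 4, and changed no call for the MZ comparisons. With the block the shares of all TSDBGID features were 7.71% for the plate, 1.05% for the CPi and 5.95% for the CPo. With each library left out in turn, the counts were 2 to 4 for IZ against plate, 0 to 1 for the CPi, 1 to 3 for the CPo, 1 to 2 for the MZ, and 1 to 2 for MZ against plate, and the libraries behind each lost call are named with the results. Over all TSDBGID features, the number higher in the IZ than in the plate was 502, and 1116 with the block, 794 by DESeq2, 834 without the filter. With each library left out, that number was 217 (IZ replicate 3) to 576 (CPi replicate 2), against the CPi 1 (IZ replicate 1) to 48 (IZ replicate 2), against the CPo 77 (CPo replicate 3) to 327 (IZ replicate 2) and against the MZ 108 (MZ replicate 3) to 650 (MZ replicate 2). It was 1038 (MZ replicate 3) to 1978 (CPi replicate 3) for MZ against plate, in place of 2114, and 0 (CPo replicate 2) to 12 (CPi replicate 3) for CPi against CPo. Against the CPi it was 11 with all E37 libraries, and 152, 200 and 205 with the block, by DESeq2 and without the filter. For the CPo it was 391, and 861, 731 and 721, for the MZ 495, and 1121, 875 and 862, and for CPi against CPo 5, and 53, 42 and 82. The direction turned in 4 results, none of them called: with libraries left out, TSDBGID.16483 in IZ against MZ lay between -0.63 and 0.45, TSDBGID.4958 between -0.41 and 0.57 in MZ against plate and between -0.0452 and 0.75 in CPi against CPo, and TSDBGID.20062 between -0.0023 and 2.75 in CPi against CPo. Arms left with 1 library were assumed to vary like the other groups. In the VZ, TSDBGID.23730 had 1 count per E28 library, and differences between layers this low were not detectable at this depth.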

Other observations

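No LINC or AS feature met the thresholds at both E28 and E42. With the floor lowered from 3 to 1 CPM, an alternative chosen after seeing the data, 5 did. LINC-GLT1D1-3 had IZ means of 1.15, 2.00 and 4.76 CPM at E28, E37 and E42, which were 4.21, 1.56 and 2.53 times the highest other layer, and it was the 1 feature of the 5 that also met the lowered thresholds at E37. LINC-RWDD3-5 and LINC-RWDD3-8, which share a name stem, had higher IZ means at E28 (7.79 and 4.45 CPM) than at E42 (2.14 and 1.55 CPM), the opposite order to the 6 TSDBGID genes. LINC-HSPA8-34 had 3.88 CPM at E28 and 2.22 CPM at E42, and SHANK2-AS-6 had 2.32 and 1.69 CPM. These values were not tested, and reads of SHANK2-AS-6 may not be separable from those of an overlapping sense gene because the strand setting of the counting is not given in the sources used here.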
